A study of Mus musculus with 9 samples.

Results

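Protocadherins are the largest branch of the cadherin family of cell adhesion proteins, and 34 protocadherin genes were measured in 3 strains of HC11 cells that each carry another form of Mkl1. A gene was taken as a protocadherin where a probeset of the array carried exactly 1 gene symbol and that symbol began with Pcdh, which held for 36 probesets. Where a gene had 2 such probesets, which was so for Pcdh9 and Pcdh15, the probeset was chosen by its mean over the 9 arrays, the higher one being used, so that this mean is given as a description and not as a result. The 34 genes, out of 19937 genes on the array with a probeset of their own, comprise 22 clustered genes, all from the beta cluster (Pcdhb1 to Pcdhb22), and 12 non-clustered genes. No gene of the alpha or gamma cluster had a probeset of its own. A single probeset shared by 14 alpha genes had log2 values between 3.17 and 3.46 in the 9 arrays and passed the test in none of the 3 comparisons, and the gamma genes were not analysed here.

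HC11 is a mouse mammary epithelial cell line derived from a pregnant BALB/c mouse. Mkl1 (also named Mrtfa) is a transcriptional coactivator that is best known for its work with serum response factor (SRF), and its SAP domain is a putative DNA-binding module. All 3 strains were stably transfected with Mkl1 carrying a red fluorescent protein (RFP) at its C-terminus, selected with Geneticin and sorted for RFP. HC11-FL expressed full-length Mkl1 and served as the reference, HC11-mutB1 expressed Mkl1 with a mutated SRF-interaction site, and HC11-ΔSAP expressed Mkl1 without the SAP domain. All cultures had been kept for 48 h in medium with 0.03% fetal calf serum and no EGF, and each strain gave 3 arrays. Each construct is represented by 1 sorted strain and no array of cells without a construct was used here, so a difference between strains cannot be told apart from a difference that arose when the strains were made. The labels do not say whether the 3 arrays of a strain came from separate cultures, and the p-values measure only the spread between these arrays.

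Protocadherins carry extracellular cadherin repeats, a membrane-spanning segment and a cytoplasmic tail that is unrelated to the catenin-binding tail of classical cadherins. The clustered genes lie in 3 tandem arrays (alpha, beta and gamma), and their proteins bind like with like on opposing cells. They are best known from neurons, where each cell expresses its own selection and thereby tells its own branches from those of its neighbours. Each beta gene is a single exon with its own promoter, whose use depends on CTCF, cohesin and DNA methylation. The non-clustered genes are scattered over the genome and act in cell sorting, cell movement and synapse formation.

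The promoters of the 3 non-clustered genes that passed the test in both mutant strains (Pcdh18, Pcdh19 and Pcdh7) are printed because the strains differ in a coactivator of SRF, whose known site is the CArG box. The sequences are from RefSeq (GRCm38.p6) and run 5′ to 3′ on the strand of the gene, from 250 bases before to 50 bases after the annotated start. Capitals mark a GC box (GGGCGG, or CCGCCC where it lies on the other strand). The windows are chr3:49757267-49757566 on the minus strand for Pcdh18, chrX:133688944-133689243 on the minus strand for Pcdh19 and chr5:57717831-57718130 on the plus strand for Pcdh7.
Pcdh18: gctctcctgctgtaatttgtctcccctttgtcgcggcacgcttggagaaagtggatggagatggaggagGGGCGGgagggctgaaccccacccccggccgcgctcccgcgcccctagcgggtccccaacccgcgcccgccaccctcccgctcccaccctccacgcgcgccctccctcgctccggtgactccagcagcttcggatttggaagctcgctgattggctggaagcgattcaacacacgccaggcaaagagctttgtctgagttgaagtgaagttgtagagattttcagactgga
Pcdh19: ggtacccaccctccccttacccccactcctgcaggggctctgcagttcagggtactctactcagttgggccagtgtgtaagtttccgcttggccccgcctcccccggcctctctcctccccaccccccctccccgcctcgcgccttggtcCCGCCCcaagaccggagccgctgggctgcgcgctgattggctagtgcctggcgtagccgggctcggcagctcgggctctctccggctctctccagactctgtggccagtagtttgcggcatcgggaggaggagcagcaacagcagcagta
Pcdh7: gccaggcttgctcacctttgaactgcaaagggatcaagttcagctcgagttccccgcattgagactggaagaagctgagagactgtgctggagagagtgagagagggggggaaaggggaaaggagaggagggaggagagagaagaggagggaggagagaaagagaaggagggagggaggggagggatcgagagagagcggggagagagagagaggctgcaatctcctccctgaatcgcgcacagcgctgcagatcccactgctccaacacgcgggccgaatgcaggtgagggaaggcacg

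The promoters of Pcdh18 and Pcdh19 each held 1 GC box, starting at position -181 and -100 from the annotated start, and that of Pcdh7 held none. A GC box also occurred in the promoters of Pcdh10 and Pcdh17, and in 35.7% of all 32851 promoters of this length. The CArG box (CC, then only A or T at each of the next 6 positions, then GG) was found in none of the 10 promoters that the table holds for 9 of the 12 non-clustered genes, against 1.63% of all promoters, both strands searched. CATTCC, the core of the site of the TEAD factors, was also found in none of the 10 promoters (14.7% of all). TATAAA was found in those of Pcdh8 and Pcdh15 (13.6% of all). GC content was 63.0% for Pcdh18, 67.7% for Pcdh19 and 59.3% for Pcdh7, against a median of 52.7% over all promoters. The absence of a motif says only that these letters do not occur in this window.

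Levels are log2 values normalized by robust multi-array averaging (RMA), and 1 unit is a 2-fold difference. Correlations between arrays were 0.994 to 0.995 within a strain and 0.985 to 0.989 between strains, and no array stood apart. The Mkl1 probeset read 9.95 ± 0.11 (SD, n = 3 here and throughout) in HC11-FL, against 9.83 ± 0.07 in HC11-mutB1 and 9.47 ± 0.07 in HC11-ΔSAP, and the difference of -0.48 between HC11-ΔSAP and HC11-FL passed the adjusted p (limma adjusted p = 0.0018). Whether this probeset reads the transfected constructs, and its part in the values below, was not tested. For the protein, the paper reports strains sorted to similar Mkl1-RFP levels and about equal overexpression of the variants by Western blot. Among the members, 17 had exactly the same value in 2 or more arrays, and Pcdhb15 had 1 value in all 3 HC11-ΔSAP arrays. Repeated values also occurred outside the family, as in Cdh8, with 1 value in all 3 HC11-FL arrays. Their share over all probesets was not counted. Errors of such probesets may be too small. Values of different probesets are not on 1 scale, so levels are compared between strains and not between genes.

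Protocadherin genes were more often higher than lower in both mutant strains. A gene was called changed where limma gave an adjusted p of at most 0.01, the fold was at least 2 and the mean log2 value over the 9 arrays was at least 4, since lower signals lie near background. In HC11-mutB1 against HC11-FL, 9 of the 34 genes were higher and 0 lower, while 1.46% of all genes were higher and 1.1% lower. In HC11-ΔSAP against HC11-FL, 5 were higher and 0 lower, against 1.36% and 1.36% of all genes. In the direct comparison of the mutant strains, 4 were lower in HC11-ΔSAP and 0 higher, against 1.5% and 1.06% of all genes.

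The level minimum was met by 18 of the 34 genes (10 clustered and 8 non-clustered) and by 13157 of all 19937 genes. Pcdhb4 lay just inside it with a mean of 4.04 and Pcdhb12 just outside with 3.87. The median over all probesets was 4.53 to 4.60 in the arrays, above this minimum. A mean a little above 4 thus does not by itself show that a gene was expressed. Because a gene near the minimum can pass through the strain in which it is high, the genes were also counted by the adjusted p alone. In HC11-mutB1, 16 of 34 genes were then higher and 1 lower, while 10.5% of all genes were higher and 7.21% lower. In HC11-ΔSAP, 10 were higher and 1 lower, against 10.8% and 8.09% of all genes. Between the mutant strains, 7 were lower in HC11-ΔSAP and 0 higher, against 7.11% and 6.63% of all genes.

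The beta cluster and the non-clustered genes are described side by side, and the difference between these sets was not tested. In HC11-mutB1 the median log2 change against HC11-FL was 0.86 over the 22 beta genes, -0.01 over the 12 non-clustered genes and -0.02 over all 19937 genes. In HC11-ΔSAP these medians were 0.50, 0.03 and 0.00. All 22 beta genes had a fitted change above 0 in both comparisons, which share the HC11-FL arrays, whereas 6 of the 12 non-clustered genes did so in HC11-mutB1 and 7 in HC11-ΔSAP. Of all 19937 genes, 8915 had a change above 0 in HC11-mutB1 and 9984 in HC11-ΔSAP. Some of the beta changes were close to 0, as given below. The median level over the 22 beta genes was 3.43 to 3.64 in the HC11-FL arrays, against 4.22 to 4.70 in the HC11-mutB1 arrays and 3.90 to 4.02 in the HC11-ΔSAP arrays. A log2 value of 4 was reached by 7 to 8 beta genes per array in HC11-FL, against 13 to 15 in HC11-mutB1 and 10 to 11 in HC11-ΔSAP. The strains did not overlap in either measure. Cultures were measured in bulk, so more cells with a given RNA and more of that RNA per cell cannot be told apart.

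Markers of the cell types that such cultures could hold were read beside these counts. All 10 mammary epithelial markers lay above the level minimum, and the mean over them was 8.98 to 9.01 in the HC11-FL arrays, against 9.0 to 9.04 in HC11-mutB1 and 8.71 to 8.72 in HC11-ΔSAP. Krt5, a basal keratin, was 2.23-fold higher in HC11-mutB1 and 3.73-fold lower in HC11-ΔSAP. Krt18, a luminal keratin, was 2.56-fold lower in HC11-ΔSAP, and Cldn7, a tight junction protein, was 3.94-fold lower in HC11-mutB1. By the adjusted p alone 5 epithelial markers were higher and 3 lower in HC11-mutB1 (10.5% and 7.21% of all genes). In HC11-ΔSAP 3 were higher (Epcam, Cdh1 and Trp63) and 5 lower (10.8% and 8.09% of all genes). The mean over 10 mesenchymal markers was 6.53 to 6.61 in HC11-FL, against 6.30 to 6.37 in HC11-mutB1 and 6.34 to 6.36 in HC11-ΔSAP. Of these, Vim (vimentin) was lower in both mutant strains (2.31-fold and 6.27-fold) and Dcn (decorin) was 3.51-fold higher in HC11-ΔSAP. By the adjusted p alone 1 mesenchymal marker was higher and 3 lower in HC11-mutB1, and 1 was higher and 4 lower in HC11-ΔSAP. Of 10 neural markers, 4 met the level minimum (Map2, Syt1, Rbfox3 and Elavl3), and the mean over the list was 4.16 to 4.17 in the HC11-FL arrays, 4.12 to 4.15 in HC11-mutB1 and 4.26 to 4.28 in HC11-ΔSAP, where every array lay above those of the other strains. In HC11-ΔSAP against HC11-FL 2 of the 10 neural markers were higher by the adjusted p alone and 0 lower, against 10.8% and 8.09% of all genes. They were Map2, by 0.43 on the log2 scale (limma adjusted p = 0.0098), and Syt1, by 0.61 (adjusted p = 0.0021). In HC11-mutB1 0 changed, against 10.5% of all genes higher and 7.21% lower. Map2 had the highest mean of the neural markers over the 9 arrays, 8.14. Stmn2, Nefl and Olig2 had the lowest means, 2.87, 3.02 and 3.30, below the level minimum. The part of these marker differences in the protocadherin values was not tested.

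Within the beta cluster, 7 genes passed all filters in HC11-mutB1: Pcdhb5, Pcdhb7, Pcdhb15, Pcdhb16, Pcdhb17, Pcdhb18 and Pcdhb20. They encode the corresponding beta protocadherins, homophilic adhesion molecules. Pcdhb16 showed the largest change of the 34 genes. The arrays read 4.90, 5.14 and 4.80 in HC11-FL, 7.70, 7.63 and 7.66 in HC11-mutB1 and 5.99, 6.27 and 6.15 in HC11-ΔSAP. The 3 strains were fully separated, with HC11-ΔSAP between the other two. The log2 difference to HC11-FL was 2.72 ± 0.10 (SE) in HC11-mutB1, a 6.58-fold increase (limma adjusted p = 1.1e-06), and 1.19 ± 0.10 in HC11-ΔSAP, a 2.29-fold increase (adjusted p = 8.2e-05).

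Pcdhb7 read 4.13, 4.30 and 4.15 in HC11-FL, 6.60, 6.79 and 6.61 in HC11-mutB1 and 5.42, 5.33 and 5.40 in HC11-ΔSAP. As for Pcdhb16, no array of a strain reached the range of another. It rose 5.54-fold in HC11-mutB1 (log2 difference 2.47 ± 0.07, limma adjusted p = 3.4e-07) and 2.28-fold in HC11-ΔSAP (1.19 ± 0.07, adjusted p = 1.5e-05). These 2 genes were the only beta genes that passed all filters in all 3 comparisons.

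Pcdhb17 read 4.60, 4.61 and 4.56 in HC11-FL, 6.30, 6.43 and 6.42 in HC11-mutB1 and 5.35, 5.19 and 5.43 in HC11-ΔSAP. It rose 3.47-fold in HC11-mutB1 (limma adjusted p = 1.4e-06), and its 1.67-fold rise in HC11-ΔSAP (adjusted p = 0.00015) passed the adjusted p but not the fold minimum. Pcdhb5 read 4.02, 3.68 and 3.72 in HC11-FL, 5.66, 5.30 and 5.69 in HC11-mutB1 and 4.39, 4.41 and 4.23 in HC11-ΔSAP. Its 3.35-fold rise in HC11-mutB1 passed (adjusted p = 4.7e-05), and its log2 difference of 0.54 ± 0.13 in HC11-ΔSAP did not (adjusted p = 0.021). In HC11-FL this gene lay around the level minimum, with 1 of 3 arrays above it.

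Pcdhb18 read 3.39, 3.87 and 3.80 in HC11-FL, 5.57, 5.41 and 5.43 in HC11-mutB1 and 4.76, 4.64 and 4.56 in HC11-ΔSAP. All 3 HC11-FL arrays lay below the level minimum and all 6 arrays of the mutant strains above it. Its increase was 3.44-fold in HC11-mutB1 (limma adjusted p = 3.4e-05) and 1.95-fold in HC11-ΔSAP (adjusted p = 0.00082), the latter just under the fold minimum. Pcdhb15 rose 2.03-fold in HC11-mutB1, from 4.41 ± 0.10 to 5.43 ± 0.11 (adjusted p = 3.4e-05), and 1.44-fold in HC11-ΔSAP, where all 3 arrays read 4.93 (adjusted p = 0.0012).

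Pcdhb20 read 4.43, 5.00 and 4.41 in HC11-FL, 5.79, 5.74 and 5.56 in HC11-mutB1 and 5.40, 5.20 and 5.17 in HC11-ΔSAP. The second HC11-FL array lay above its 2 companions but below all arrays of the mutant strains. The rise in HC11-mutB1 was 2.12-fold (limma adjusted p = 0.0018), and the log2 difference of 0.65 ± 0.16 in HC11-ΔSAP did not pass (adjusted p = 0.022). Pcdhb19, its neighbour, showed the same spread in HC11-FL, with 4.64, 5.15 and 4.71, and read 5.98, 5.85 and 5.30 in HC11-mutB1. Its log2 difference of 0.88 ± 0.19 in HC11-mutB1 did not pass (adjusted p = 0.014). Without the second HC11-FL array, Pcdhb19 passed all filters and the count in HC11-mutB1 was 10.

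Pcdhb22 passed all filters in HC11-ΔSAP alone, the only beta gene to do so. It read 4.81, 5.17 and 4.78 in HC11-FL, 5.70, 5.85 and 5.76 in HC11-mutB1 and 6.15, 6.25 and 6.38 in HC11-ΔSAP. Here HC11-ΔSAP was the strain with the highest values, without overlap. The increase was 2.54-fold in HC11-ΔSAP (limma adjusted p = 8e-05) and 1.81-fold in HC11-mutB1 (adjusted p = 0.001). The difference between the mutant strains, 0.49 ± 0.11 on the log2 scale, did not pass (adjusted p = 0.021, 95% confidence interval 0.23 to 0.75).

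**Figure D1:**
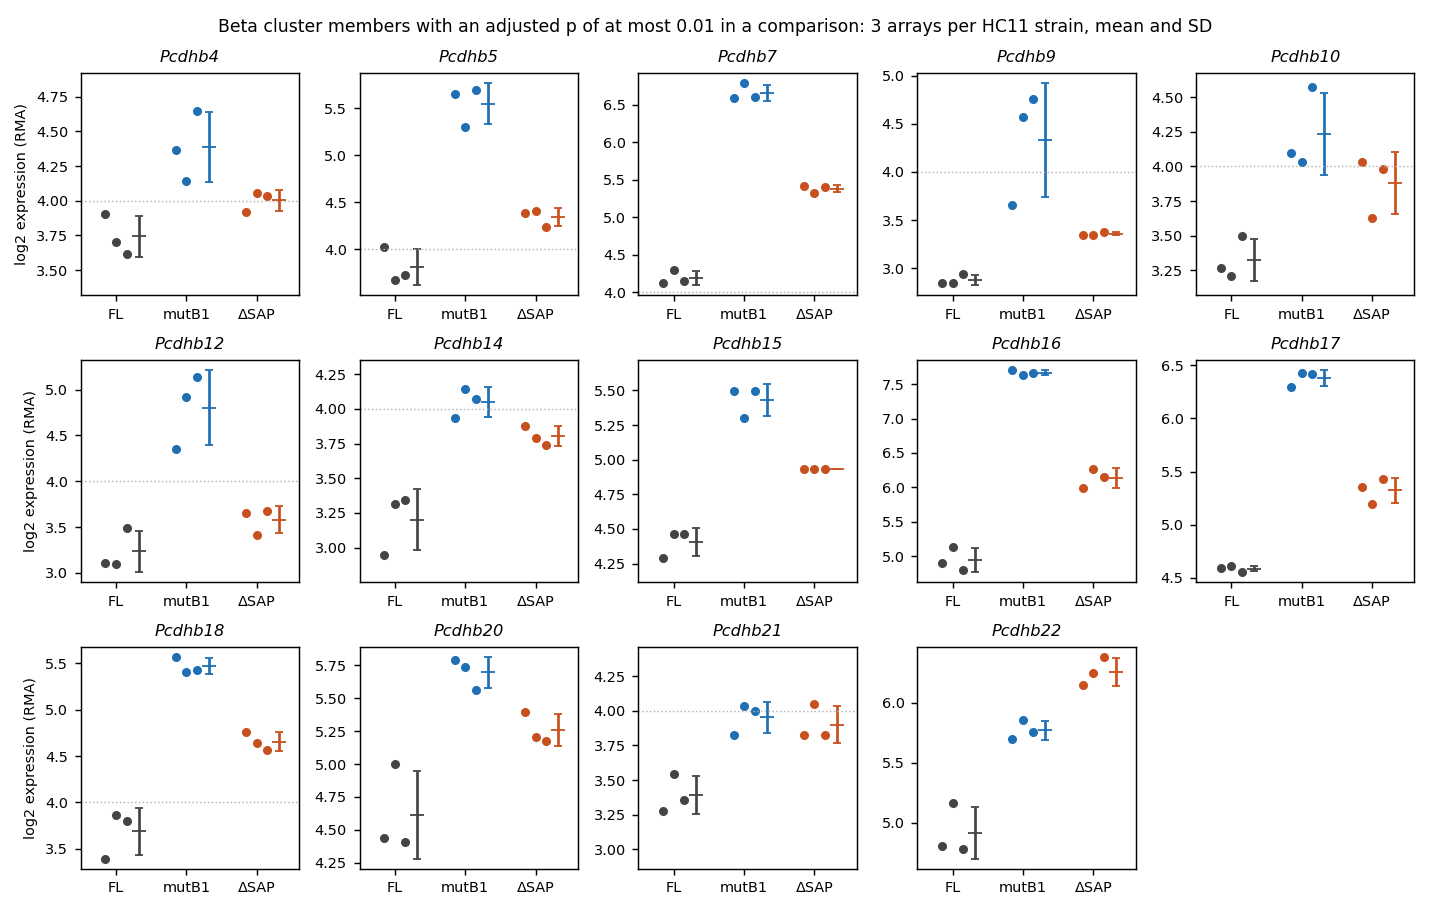
Log2 expression (vertical axis, its range set for each panel and at least 1.6 wide) of the 14 beta genes with an adjusted p of at most 0.01 in a comparison, with 1 point per array, the mean and the SD for HC11-FL, HC11-mutB1 and HC11-ΔSAP, and a dotted line at the level minimum of 4. In every panel but that of Pcdhb22 the HC11-mutB1 mean is the highest, and Pcdhb9, Pcdhb10, Pcdhb12, Pcdhb14 and Pcdhb21 have an HC11-FL mean under 3.5.

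A further 7 beta genes, Pcdhb22 among them, passed the adjusted p in HC11-mutB1 but not all filters. Pcdhb9, Pcdhb10, Pcdhb12, Pcdhb14 and Pcdhb21 had a mean over the 9 arrays under the level minimum. Pcdhb12 read 3.11, 3.1 and 3.49 in HC11-FL against 4.35, 4.92 and 5.14 in HC11-mutB1, a log2 difference of 1.57 ± 0.20 (limma adjusted p = 0.00097). Pcdhb9 read 2.85, 2.85 and 2.94 in HC11-FL and 3.66, 4.57 and 4.76 in HC11-mutB1, a difference of 1.45 ± 0.25 (adjusted p = 0.0039). The first HC11-mutB1 array lay well under its companions. Pcdhb4 lay inside the level minimum and read 3.91, 3.70 and 3.61 in HC11-FL and 4.36, 4.14 and 4.65 in HC11-mutB1 (1.56-fold, adjusted p = 0.0094). Of the 9 fits that left out 1 array, the call by the adjusted p was lost in 8 for Pcdhb4, 8 for Pcdhb10, 5 for Pcdhb9 and 4 for Pcdhb21.

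At the other end, 7 of the 22 beta genes passed the test in no comparison and had a mean under the level minimum: Pcdhb1, Pcdhb2, Pcdhb3, Pcdhb6, Pcdhb8, Pcdhb11 and Pcdhb13. Their log2 changes against HC11-FL lay between 0.01 (Pcdhb13) and 0.31 (Pcdhb11) in HC11-mutB1. In HC11-ΔSAP they lay between 0.04 and 0.32. For Pcdhb13 the 95% confidence interval of the change in HC11-mutB1 ran from -0.17 to 0.18. For Pcdhb1 it ran from -0.07 to 0.30. Values this close to background do not show whether these genes changed. Beta genes are similar to one another in sequence, and how far the probeset of 1 beta gene also read the RNA of another was not tested.

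The mutant strains were then compared directly. Pcdhb5, Pcdhb7, Pcdhb16 and Pcdhb17 passed all filters, with lower values in HC11-ΔSAP. The log2 difference was -1.53 ± 0.10 for Pcdhb16 (2.88-fold, limma adjusted p = 2.6e-05), -1.28 ± 0.07 for Pcdhb7 (2.43-fold, adjusted p = 1.1e-05), -1.21 ± 0.13 for Pcdhb5 (2.31-fold, adjusted p = 0.00042) and -1.06 ± 0.07 for Pcdhb17 (2.08-fold, adjusted p = 2.5e-05). The 4 genes had their highest values in HC11-mutB1. Pcdhb12, Pcdhb15 and Pcdhb18 passed the adjusted p alone, with differences of -1.23, -0.50 and -0.81. The median over the 22 beta genes was -0.37, against 0.05 over the non-clustered genes and 0.02 over all genes. By their means, 16 of the 22 beta genes ranked HC11-FL, HC11-ΔSAP and HC11-mutB1 from low to high, and the other 6 ranked HC11-FL, HC11-mutB1 and HC11-ΔSAP. These orders rest on means. The differences between neighbouring strains that passed the adjusted p include those given above. Between HC11-FL and HC11-ΔSAP they also include Pcdhb14 (0.60, limma adjusted p = 0.0054) and Pcdhb21 (0.51, adjusted p = 0.0066). Some that did not pass still had no overlap between the arrays, as Pcdhb19 between HC11-FL and HC11-ΔSAP (adjusted p = 0.14).

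Leaving out single arrays changed the calls of a few genes. In HC11-mutB1 against HC11-FL, Pcdhb15 and Pcdhb20 no longer passed all filters without HC11-FL replicate 1 (7 genes), Pcdhb20 without HC11-FL replicate 3 (8 genes), and Pcdhb15 without HC11-mutB1 replicate 1 (8 genes) or replicate 3, where Pcdhb19 was gained (9 genes). In HC11-ΔSAP against HC11-FL, Pcdhb18 was gained without HC11-FL replicate 2 or 3 or HC11-ΔSAP replicate 3 (6 genes). Between the mutant strains, Pcdhb17 was lost without HC11-ΔSAP replicate 2 (3 genes). On the adjusted p alone, the members called between the mutant strains fell from 7 to 4 without HC11-mutB1 replicate 3 or HC11-ΔSAP replicate 2, in both cases through Pcdhb12, Pcdhb15 and Pcdhb18. By the same rule, Pcdhb21 was lost in 7 and Pcdhb14 in 5 of the 9 fits of HC11-ΔSAP against HC11-FL.

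The beta genes follow their numbers along mouse chromosome 18, from Pcdhb1 to Pcdhb22, as the order of genes in RefSeq (GRCm38.p6) shows. The 14 beta genes with an adjusted p of at most 0.01 in HC11-mutB1 lie between Pcdhb4 and Pcdhb22. Genes that passed and genes that did not were interleaved along this stretch. Pcdhb6, Pcdhb8, Pcdhb11 and Pcdhb13 did not pass, with log2 changes of 0.10, 0.11, 0.31 and 0.01, and each lay beside a gene that did. All of them had a mean under the level minimum, so their small changes do not show that they were unchanged. Pcdhb19 did not pass either, with a larger change of 0.88 (limma adjusted p = 0.014). Pcdhb7, which rose 5.54-fold, lies between Pcdhb6 and Pcdhb8. At the start of the cluster, Pcdhb1, Pcdhb2 and Pcdhb3 did not pass in either mutant strain.

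Of 16 genes that lie beside or between the protocadherin clusters, 0 passed all filters in HC11-mutB1, and by the adjusted p alone 3 were higher and 0 lower (Cd14, Ndufa2 and Hdac3). In HC11-ΔSAP, Cd14, a receptor for bacterial lipopolysaccharide, was 2.83-fold higher (limma adjusted p = 6.3e-07) and was the only neighbour that passed all filters. By the adjusted p alone 4 were higher there and 0 lower (Cd14, Ndufa2, Hars and Hdac3). Of all genes, 10.5% were higher and 7.21% lower in HC11-mutB1 by the adjusted p alone, and 10.8% and 8.09% in HC11-ΔSAP. The median log2 change over the 16 genes was 0.21 in both strains. It thus lay between the medians over the beta genes (0.86 and 0.50) and over all genes (-0.02 and 0.00). Whether the neighbours differed from all genes was not tested. Hdac3, a histone deacetylase, changed by 0.27 in HC11-mutB1 and 0.28 in HC11-ΔSAP. Taf7, a general transcription factor gene that lies between the beta and gamma clusters, read 4.87 ± 0.16 in HC11-FL, against 5.08 ± 0.07 in HC11-mutB1 and 5.04 ± 0.15 in HC11-ΔSAP and did not pass.

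**Figure D2:**
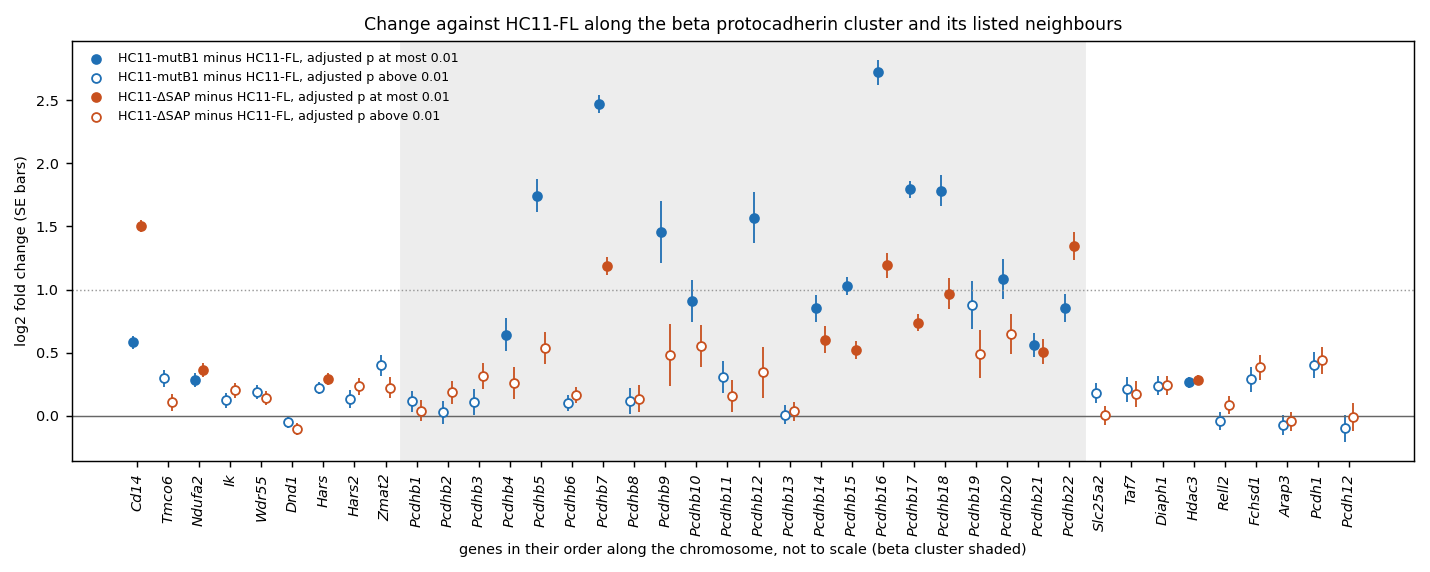
Log2 fold change against HC11-FL on the vertical axis, with SE bars, of the 22 beta genes (shaded) and of genes before and after it, in their order along the chromosome and not to scale. Filled points have an adjusted p of at most 0.01 and the dotted line marks a 2-fold increase. Within the shaded stretch, genes near 0 such as Pcdhb6, Pcdhb8 and Pcdhb13 stand beside genes such as Pcdhb7 and Pcdhb16 at 2.47 and 2.72 in HC11-mutB1, and outside it only Cd14 in HC11-ΔSAP passes the line. Pcdhb6, Pcdhb8 and Pcdhb13 have a mean under the level minimum.

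Of the 12 non-clustered genes, Pcdh18 and Pcdh19 passed all filters in both mutant strains. Both belong to the delta-2 protocadherins, and their promoters are printed above. Pcdh18 read 8.19, 8.06 and 8.03 in HC11-FL, 9.66, 9.68 and 9.69 in HC11-mutB1 and 9.82, 9.75 and 9.78 in HC11-ΔSAP. Every array of the mutant strains lay above every HC11-FL array by more than the spread within a strain. The increase was 3.0-fold in HC11-mutB1 (log2 difference 1.59 ± 0.05, limma adjusted p = 7e-07) and 3.22-fold in HC11-ΔSAP (1.69 ± 0.05, adjusted p = 5.6e-07). The mutant strains differed by 0.10 on the log2 scale, which did not pass (adjusted p = 0.3, 95% confidence interval -0.02 to 0.22).

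Pcdh19, an X-linked gene whose protein associates with N-cadherin and whose human counterpart is mutated in an epilepsy of girls, read 4.09, 3.83 and 4.09 in HC11-FL, 5.70, 5.79 and 5.84 in HC11-mutB1 and 5.29, 5.72 and 5.29 in HC11-ΔSAP. HC11-FL lay around the level minimum and both mutant strains clearly above it. The increase was 3.42-fold in HC11-mutB1 (1.77 ± 0.13, limma adjusted p = 4.3e-05) and 2.69-fold in HC11-ΔSAP (1.43 ± 0.13, adjusted p = 0.00013). The ranges of the mutant strains overlapped, and their difference of -0.34 did not pass (adjusted p = 0.14, 95% confidence interval -0.64 to -0.04).

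Pcdh7 was the only protocadherin gene that was lower in the mutant strains by the adjusted p. It encodes a delta-1 protocadherin whose tail binds the protein phosphatase PP1. It read 5.94, 5.98 and 6.13 in HC11-FL, 5.34, 5.03 and 5.06 in HC11-mutB1 and 5.38, 5.44 and 5.21 in HC11-ΔSAP. All 6 arrays of the mutant strains lay below the HC11-FL arrays. It was 1.83-fold lower in HC11-mutB1 (-0.87 ± 0.10, limma adjusted p = 0.00052) and 1.6-fold lower in HC11-ΔSAP (-0.67 ± 0.10, adjusted p = 0.0019), both under the fold minimum. The mutant strains differed by 0.20 (adjusted p = 0.29, 95% confidence interval -0.04 to 0.43).

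The other 9 non-clustered genes passed the test in no comparison with the probeset used. A second Pcdh9 probeset, under the level minimum, passed the adjusted p in HC11-ΔSAP against both other strains, as described at the end. Pcdh1, a delta-1 protocadherin of epithelia, read 4.83, 5.15 and 5.06 in HC11-FL, 5.34, 5.56 and 5.34 in HC11-mutB1 and 5.34, 5.59 and 5.42 in HC11-ΔSAP. The mutant strains lay above HC11-FL without overlap, with log2 differences of 0.40 (limma adjusted p = 0.031) and 0.44 (adjusted p = 0.02). Pcdh9 and Pcdh17 had their highest values in HC11-ΔSAP. Pcdh9 read 4.25, 4.08 and 4.25 in HC11-FL, 4.25, 4.11 and 4.08 in HC11-mutB1 and 4.41, 4.58 and 4.76 in HC11-ΔSAP (0.39 against HC11-FL, adjusted p = 0.023). Pcdh17, a delta-2 protocadherin that recruits the WAVE actin regulators, averaged 4.48 ± 0.13, 4.5 ± 0.07 and 4.85 ± 0.17 in the 3 strains (0.37 in HC11-ΔSAP, adjusted p = 0.034).

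Pcdh15, a component of the tip links of inner-ear hair cells, and Pcdh12, known from the vascular endothelium, met the level minimum and differed little between strains. The Pcdh12 mean over the 9 arrays, 4.47, lay under the array medians over all probesets. Pcdh15 averaged 4.95 ± 0.07, 4.96 ± 0.08 and 4.95 ± 0.14 in HC11-FL, HC11-mutB1 and HC11-ΔSAP, and Pcdh12 averaged 4.51 ± 0.08, 4.41 ± 0.05 and 4.5 ± 0.23. The 95% confidence interval of the Pcdh15 change in HC11-mutB1 was -0.17 to 0.19. A second Pcdh15 probeset, not used for the counts, had a mean of 3.27 over the 9 arrays, under the level minimum. It passed the test in no comparison. Pcdh8, Pcdh10, Pcdh11x and Pcdh20 lay under the level minimum, with means over the 9 arrays of 3.70, 3.33, 2.71 and 3.06, and their changes against HC11-FL were between -0.12 and 0.06 in both mutant strains.

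**Figure D3:**
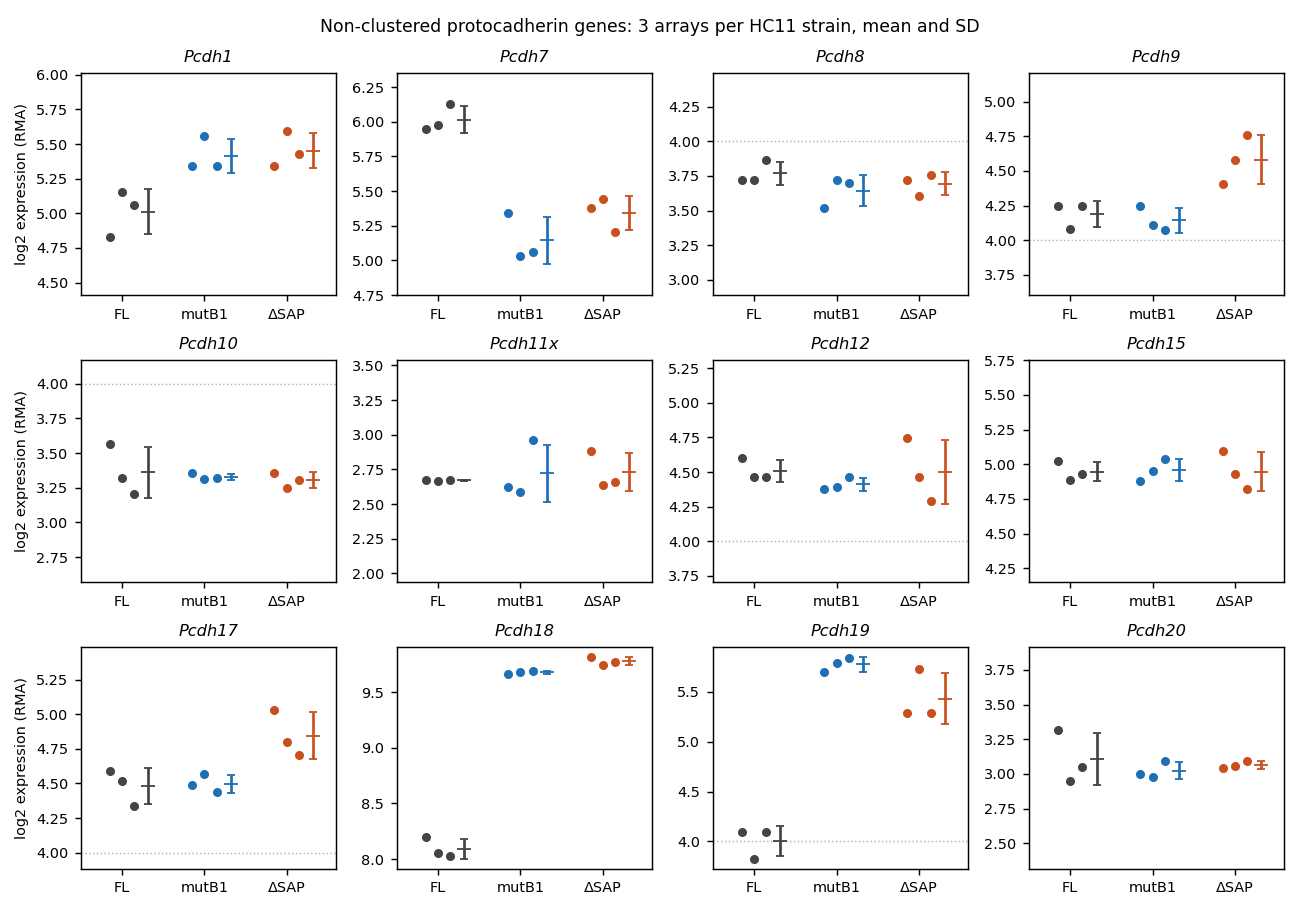
Log2 expression (vertical axis, its range set for each panel and at least 1.6 wide) of the 12 non-clustered protocadherin genes, with 1 point per array, the mean and the SD for each strain, and a dotted line at the level minimum of 4. Pcdh18 and Pcdh19 are higher in both mutant strains than in HC11-FL without overlap and Pcdh7 is lower.

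**Figure D4:**
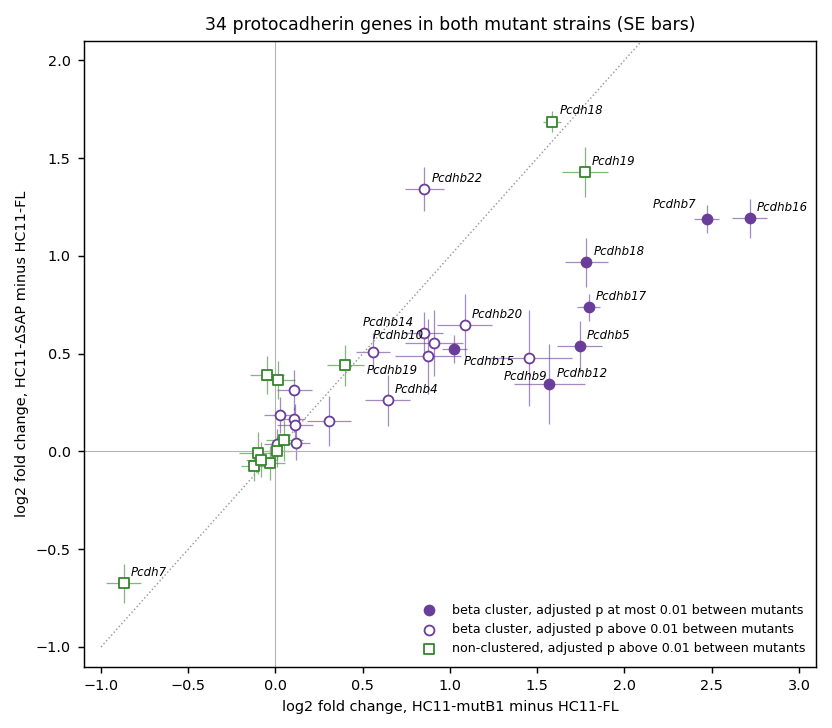
Log2 fold change of the 34 genes, with HC11-mutB1 minus HC11-FL on the horizontal axis and HC11-ΔSAP minus HC11-FL on the vertical axis, with SE bars and a dotted line of equal change. Both axes share the HC11-FL arrays. The filled points, genes with an adjusted p of at most 0.01 between the mutant strains, are 7 beta genes below the line, while Pcdh18 and Pcdh19 lie near it and Pcdhb22 above it.

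Genes known to act with protocadherins were counted from lists of known regulators, partners and relatives, and no list was tested as a set. The following shares of all genes apply to each list below. With all filters, 1.46% were higher and 1.1% lower in HC11-mutB1, and 1.36% and 1.36% in HC11-ΔSAP. By the adjusted p alone, 10.5% were higher and 7.21% lower in HC11-mutB1, and 10.8% and 8.09% in HC11-ΔSAP. Of 21 measured regulators of clustered protocadherin promoters (cohesin and its loaders, CTCF, DNA methyltransferases and silencing factors), all met the level minimum and 0 passed all filters in HC11-mutB1. By the adjusted p alone 3 were higher there (Ctcf, Smc1a and Nipbl) and 2 lower (Wapl and Trim28). Ctcf, the factor that binds the clustered promoters, read 8.64 ± 0.05 in HC11-FL, against 8.90 ± 0.01 in HC11-mutB1 and 8.90 ± 0.05 in HC11-ΔSAP. In HC11-ΔSAP the only regulator that passed all filters was Uhrf1, which guides maintenance of DNA methylation, at 2.12-fold lower than in HC11-FL (limma adjusted p = 3.2e-05), while 5 were lower and 4 higher by the adjusted p alone. The median change over this list was 0.07 in HC11-mutB1 and -0.10 in HC11-ΔSAP.

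Among 18 measured intracellular partners, Marcks, an actin-binding substrate of protein kinase C, was 2.43-fold higher in HC11-mutB1 (limma adjusted p = 0.00028) and 1.98-fold in HC11-ΔSAP (adjusted p = 0.0011), and was the only one past all filters in any comparison. By the adjusted p alone 3 partners were higher and 0 lower in HC11-mutB1, and 2 were higher and 1 lower in HC11-ΔSAP. Of all genes, 10.5% were higher and 7.21% lower in HC11-mutB1, and 10.8% and 8.09% in HC11-ΔSAP. Of 7 measured proteases that shed protocadherins or cut them in the membrane, 0 passed all filters in any comparison. By the adjusted p alone 1 was higher and 1 lower in HC11-mutB1, and 2 were lower in HC11-ΔSAP. The list's median change against HC11-FL was -0.14 in HC11-mutB1 and 0.07 in HC11-ΔSAP. Between the mutant strains 3 proteases were lower in HC11-ΔSAP and 3 higher by the adjusted p alone, against 7.11% and 6.63% of all genes.

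Of 22 classical cadherins and close relatives, 10 met the level minimum, and 3 were higher in both mutant strains with all filters, namely Cdh2, Cdh3 and Cdh13. Cdh2 (N-cadherin) read 6.34 ± 0.14 in HC11-FL, against 8.14 ± 0.03 in HC11-mutB1, and 9.76 ± 0.03 in HC11-ΔSAP, a 3.49-fold and a 10.7-fold increase, and its 3.08-fold difference between the mutant strains passed all filters as well (limma adjusted p = 3e-06). Its order of the mutant strains was opposite to that of Pcdhb16. Cdh3 (P-cadherin) rose 4.12-fold and 3.01-fold and Cdh13 (T-cadherin) 3.69-fold and 3.05-fold in HC11-mutB1 and HC11-ΔSAP. Cdh1 (E-cadherin) read 10.64 ± 0.02, 10.76 ± 0.03 and 11.01 ± 0.03. The list's median change was -0.01 and 0.00.

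Among 20 measured other members of the cadherin superfamily, Fat2, a giant cadherin of epithelial migration, was 3.61-fold higher in HC11-mutB1, and Dsg3, a desmosomal cadherin, was 3.07-fold higher. Against HC11-mutB1 both were lower in HC11-ΔSAP (2.56-fold and 3.65-fold), the direction also seen for the 4 called beta genes, and 0 members of this list passed all filters in HC11-ΔSAP against HC11-FL. By the adjusted p alone 4 were higher and 3 lower in HC11-mutB1, and 2 were higher and 3 lower in HC11-ΔSAP. The list's median change was -0.01 in HC11-mutB1 and 0.06 in HC11-ΔSAP.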

How the data were processed

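RNA of 3 HC11 strains, with 3 arrays each, was hybridized to Affymetrix mouse gene arrays. The authors processed the scans with RMA (per the labels in R 2.10.0 with the affy package) and deposited log2 values of 34760 probesets; scans were not used here. Each array holds 1 sample, and the number of arrays limits the precision. Probesets were named by the platform annotation (21640 with 1 symbol, 1321 with several, 11799 with none listed). limma 3.58.1 in R 4.3.3 was fitted to all probesets and all 9 arrays with 1 mean per strain (6 residual and 1.93 prior degrees of freedom), and p-values were adjusted by the Benjamini-Hochberg method over all 34760 probesets. A call needed the 3 filters of the study, namely a 2-fold difference, a mean log2 value of 4 or more and an adjusted p no higher than 0.01. The script was tested on simulated data. Named with values were members with an adjusted p of at most 0.01 and a mean of at least 4, the 5 clustered and 5 non-clustered members with the highest means, all non-clustered members by level, and listed genes past all filters (at most 6 per list); other names were chosen after their values were seen. The members, lists and tests were chosen with earlier results of these data known. Alternatives covered the filters, the scaling, the prior, the samples fitted, the replicate numbers as a block, the choice of probeset and leaving out each array. Zfp143, Ptk2, Cyfip1 and Dchs2 were not analysed here.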

Additional observations from a re-analysis of the deposited data

Results flagged for a closer look

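Pcdh9 has a second probeset, which was not used for the counts because its mean over the 9 arrays was lower. It lies under the level minimum and read 3.06, 2.84 and 2.93 in HC11-FL, 2.92, 3.07 and 3.05 in HC11-mutB1 and 3.74, 3.79 and 3.74 in HC11-ΔSAP. Its log2 difference of 0.81 between HC11-ΔSAP and HC11-FL passed the adjusted p (limma adjusted p = 8e-05), while that of the probeset used, 0.39, did not (adjusted p = 0.023). Between HC11-ΔSAP and HC11-mutB1 its difference of 0.74 passed as well (adjusted p = 0.00017), while that of the probeset used, 0.44, did not (adjusted p = 0.017). Both probesets were higher in HC11-ΔSAP.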

How the results depend on the processing

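Counts of protocadherin genes past all filters moved by more than 1.5 times under changed filters. With no fold minimum, 1 gene (Pcdh7) was lower in each mutant strain and 8 were higher in HC11-ΔSAP; with a fold minimum of 1.5, 1 was again lower in each. With the adjusted p alone, a setting chosen after seeing the data, 1 was lower and 16 were higher in HC11-mutB1, 1 was lower and 10 were higher in HC11-ΔSAP, and between the mutant strains 7 were lower in HC11-ΔSAP. The other 74 counts under alternatives stayed within 1.5 times, and no change that passed the adjusted p reversed; the value of Pcdh15 in HC11-mutB1, which is near 0 and did not pass (0.01), was -0.06 with the mean of its probesets. Leaving out 1 array gave 7 to 10 higher genes in HC11-mutB1, 5 to 6 in HC11-ΔSAP and 3 to 4 lower genes between the mutant strains, and by the adjusted p alone 4 to 8 genes between the mutant strains. Samples with the same replicate number deviated together in some pairs only (r from -0.11 to 0.26 over 9 pairs, and -0.26 to 0.23 over 18 pairs of different number), so the numbers were not taken to pair the samples. With the replicate block the counts were 9 and 5 higher genes in the mutant strains and 4 lower between them, as without it; by the adjusted p alone, Pcdhb4 was lost in HC11-mutB1 (0.026) and Pcdhb14 in HC11-ΔSAP against HC11-FL, Pcdhb18 (0.014) was lost between the mutant strains, and Pcdh1 was gained in HC11-mutB1 (0.0049) and HC11-ΔSAP (0.0032). In a fit of only the 2 strains compared, Pcdhb20 in HC11-mutB1 had an adjusted p of 0.011. The cause of these changes was not tested beyond the settings themselves. Signal near background limits the genes with a mean under 4.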
